A study of Homo sapiens with 9 samples.

Results

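RGS proteins, the regulators of G protein signalling, switch heterotrimeric G proteins off. This account covers the 8 RGS genes with the most counts in MM.1S cells, RGS1, RGS2, RGS3, RGS10, RGS12, RGS14, RGS16 and RGS19, of 21 RGS genes and 60675 gene IDs in all. They were selected on their symbols and on levels and dose changes already seen in these libraries. Their own values are therefore given as a description, with no p-value, and the counts of them past the threshold used for all genes are read as nothing more than counts. MM.1S is an established human multiple myeloma line that grows in suspension. Cells had EGCG (epigallocatechin gallate, the main catechin of green tea) at 0 µM, called control here, at 40 µM or at 80 µM for 24 h, and RNA of 3 libraries at each dose was sequenced. All 3 groups are the same line with no other agent named, so 1 line stands for the disease. The labels do not say that the libraries of a dose came from separate cultures. The spread between them may therefore be technical.

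A G protein carries a signal from a receptor while its alpha subunit holds GTP, and the RGS domain speeds the hydrolysis of that GTP. RGS genes fall into subfamilies by the rest of the protein. RGS1, RGS2, RGS3 and RGS16 are of the R4 subfamily, whose members are mostly small and act on the Gi and Gq classes. RGS10, RGS12 and RGS14 are of the R12 subfamily, in which RGS12 and RGS14 also carry a GoLoco motif that holds Gi alpha subunits in their GDP form, and RGS19 is of the RZ subfamily, which acts on Gz and Gi. In lymphoid cells RGS1 is best known for dampening chemokine receptor signals and so limiting migration.

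At 24 h the R4 genes went in opposite directions. RGS1 and RGS2 were lower at both EGCG doses, and RGS3 and RGS16 were higher at 80 µM, with 40 µM libraries close to control. Per length, RGS1 was the most abundant RGS transcript in the control and at 40 µM. Whether it or RGS16 led at 80 µM depended on the gene length used. RGS19, RGS14 and RGS10 were lower at 80 µM by smaller amounts, though RGS10 varied between the libraries of each EGCG dose. RGS12 showed no separation by dose.

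RGS1, RGS2 and RGS16 lie on chromosome 1, and their promoters are shown because these genes include both directions of dose difference. The sequences are the 250 bases before the annotated start in RefSeq, assembly GRCh38.p14, written 5′ to 3′ on the strand of the gene. RefSeq places the starts of RGS1 and RGS16 slightly inside the GENCODE spans given further on. Capitals mark matches to the TATA box (TATAAA), to the CCAAT box, whose letters are its name, and to the GC box (GGGCGG). Both strands were read. On the opposite strand the CCAAT box appears as ATTGG, while the other box reads CCGCCC there.
RGS1, chr1:192575523-192575772, plus strand: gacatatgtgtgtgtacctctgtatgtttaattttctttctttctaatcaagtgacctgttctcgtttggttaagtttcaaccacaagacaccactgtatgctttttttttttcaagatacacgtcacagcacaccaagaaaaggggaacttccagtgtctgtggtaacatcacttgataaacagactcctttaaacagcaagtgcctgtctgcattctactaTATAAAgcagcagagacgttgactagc
RGS2, chr1:192808789-192809038, plus strand: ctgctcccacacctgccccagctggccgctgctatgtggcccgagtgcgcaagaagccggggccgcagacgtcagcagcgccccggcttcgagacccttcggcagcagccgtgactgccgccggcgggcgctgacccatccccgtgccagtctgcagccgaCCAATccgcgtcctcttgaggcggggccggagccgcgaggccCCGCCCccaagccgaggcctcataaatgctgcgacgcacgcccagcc
RGS16, chr1:182604390-182604639, minus strand: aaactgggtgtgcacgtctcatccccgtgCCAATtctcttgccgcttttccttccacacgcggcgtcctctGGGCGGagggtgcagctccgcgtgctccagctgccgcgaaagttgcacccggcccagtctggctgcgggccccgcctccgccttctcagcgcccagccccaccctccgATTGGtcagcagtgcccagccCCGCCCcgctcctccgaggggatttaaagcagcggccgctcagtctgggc

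The 3 promoters differed in base composition and in these short motifs. The RGS1 window was 39.2% G or C, the RGS2 window 72.8% and the RGS16 window 68.4%, against a median of 58.0% over 35116 RefSeq promoters. The RGS1 window holds a TATA box at positions -27 to -22, counted with -1 as the base before the start. The RGS2 window holds a CCAAT box at -89 to -85 and an opposite-strand GC box at -47 to -42. The RGS16 window holds CCAAT boxes at -221 and, on the opposite strand, -71, and GC boxes at -179 and, on the opposite strand, -50. Of all promoters of this length, 10.7% hold the TATA box, 32.0% the CCAAT box and 42.6% the GC box, so the last 2 are common. The CCAAT and GC boxes were added to the search after the sequences had been read. None of the marked matches overlap. The search also covered the cAMP response element TGACGTCA (1.65% of all promoters), the AP-1 site TGANTCA (6.57%) and the ATF4-C/EBP element TGATGNAA (3.14%). Those letters occur in none of the 18 RefSeq promoter windows of the 8 genes. The E-box CACGTG, in 6.34% of all promoters, occurs in 2 of those 18 windows. The TATA box also occurs in 2 of the 18, that of RGS1 and 1 of RGS3 (at -166 to -161), the CCAAT box in 3 and the GC box in 10. A match or its lack is a description of these letters and says nothing of a factor's binding.

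Of the 8 genes, RGS1 had the most counts and the largest decrease. Its level in CPM (counts scaled to library size) was 576, 628 and 432 in the control libraries, 134, 159 and 125 at 40 µM, and 94.2, 81.0 and 79.0 at 80 µM. The 3 groups did not overlap, and the largest step lay between control and 40 µM. The fitted log2 fold change was -1.97 ± 0.15 (SE) at 40 µM against control, -2.69 ± 0.16 at 80 µM against control and -0.72 ± 0.15 at 80 µM against 40 µM, over 3 libraries a group. On the linear scale RGS1 was 3.91-fold lower at 40 µM and 6.43-fold lower at 80 µM than in control.

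RGS2, which acts mainly on the Gq class and lies downstream of RGS1 on the same chromosome arm, was also lower at both doses. It had 92.7, 91.6 and 72.0 CPM in control libraries, 32.2, 35.6 and 30.6 at 40 µM, and 32.7, 23.4 and 26.1 at 80 µM. Both EGCG groups lay below every control library, while the 80 µM and 40 µM libraries overlapped. For RGS2 the log2 fold change was -1.38 ± 0.15 at 40 µM and -1.64 ± 0.16 at 80 µM against control, and -0.26 ± 0.15 at 80 µM against 40 µM. Nearly all of the decrease in RGS2 was thus in place at 40 µM, whereas RGS1 had a further step.

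RGS16, a small R4 protein that acts on Gi and Gq alpha subunits, stood above control at 80 µM. It had 21.7, 22.3 and 24.8 CPM in control libraries, 24.9, 27.1 and 22.2 at 40 µM, and 54.8, 51.1 and 53.7 at 80 µM. The 40 µM libraries overlapped the control, and the 80 µM libraries lay above all others within a narrow range. RGS16 had a log2 fold change of 1.21 ± 0.12 at 80 µM against control, 1.10 ± 0.12 at 80 µM against 40 µM and 0.11 ± 0.12 at 40 µM against control.

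RGS3, an R4 gene with both short and long protein forms, had the largest increase of the 8. It had 12.7, 10.9 and 12.3 CPM in control libraries, 14.3, 13.7 and 14.5 at 40 µM, and 37.9, 33.7 and 42.2 at 80 µM. The 40 µM libraries lay just above the control libraries, and the 80 µM libraries lay far above both. RGS3 had a log2 fold change of 1.67 ± 0.13 at 80 µM against control, 1.42 ± 0.13 at 80 µM against 40 µM and 0.25 ± 0.13 at 40 µM against control. Counts are per gene, so the forms of RGS3 cannot be told apart here.

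**Figure D1:**
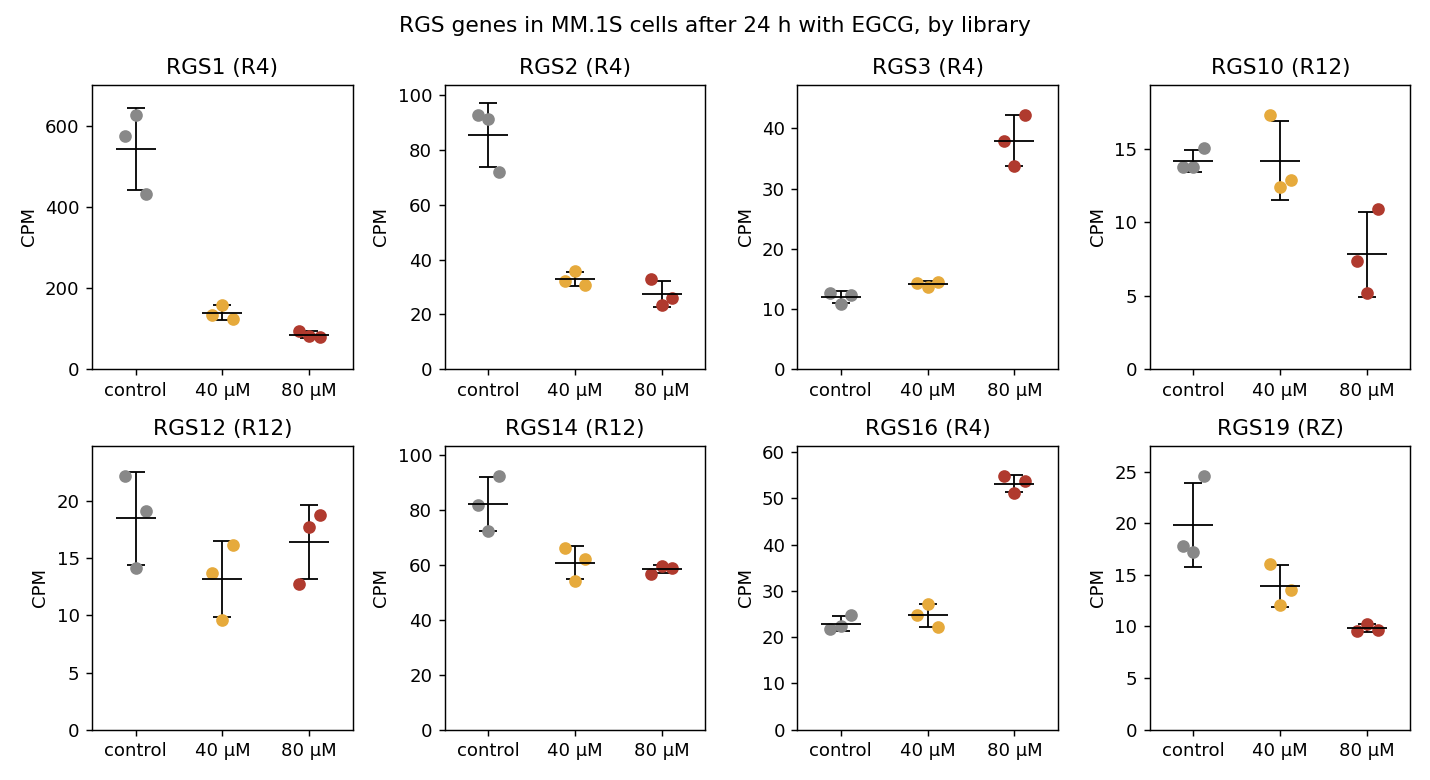
CPM (y axis, linear, from 0, with a scale of its own in each panel) of the 8 RGS genes by EGCG dose (x axis, control, 40 µM and 80 µM). Points are libraries and bars are means ± SD (n = 3); RGS1 and RGS2 drop at 40 µM, RGS3 and RGS16 stay near control at 40 µM and stand above it at 80 µM, and RGS12 overlaps at all doses.

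In the R12 subfamily RGS14 had 81.8, 72.4 and 92.3 CPM in control libraries, 66.2, 54.3 and 62.1 at 40 µM, and 56.7, 59.5 and 58.9 at 80 µM. Both EGCG groups lay below the control libraries and overlapped each other. The log2 fold change was -0.43 ± 0.12 at 40 µM and -0.49 ± 0.12 at 80 µM against control.

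RGS10, one of the smallest RGS proteins and little more than the RGS domain, had 13.8, 13.8 and 15.1 CPM in control libraries, 17.3, 12.4 and 12.9 at 40 µM, and 7.36, 5.16 and 10.9 at 80 µM. The 80 µM libraries all lay below the others, but they spanned more than a 2-fold range. The log2 fold change was -0.87 ± 0.25 at 80 µM against control and -0.87 ± 0.25 at 80 µM against 40 µM. Over the 14 alternative fits its log2 fold change at 80 µM against control ran from -1.17 to -0.62, both ends set by leaving out 1 of the 80 µM libraries.

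RGS12, a large multidomain R12 protein, had 22.2, 14.1 and 19.1 CPM in control libraries, 13.7, 9.65 and 16.2 at 40 µM, and 12.7, 17.8 and 18.8 at 80 µM. All 3 groups overlapped. The log2 fold change was -0.49 ± 0.23 at 40 µM and -0.17 ± 0.23 at 80 µM against control.

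RGS19, the RZ member first described as GAIP, stepped down with dose. It had 17.8, 17.2 and 24.6 CPM in control libraries, 16.1, 12.1 and 13.6 at 40 µM, and 9.59, 10.3 and 9.67 at 80 µM. The 3 groups did not overlap, though the nearest control and 40 µM libraries were close. RGS19 had a log2 fold change of -1.01 ± 0.17 at 80 µM against control, -0.51 ± 0.17 at 40 µM against control and -0.50 ± 0.17 at 80 µM against 40 µM.

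**Figure D2:**
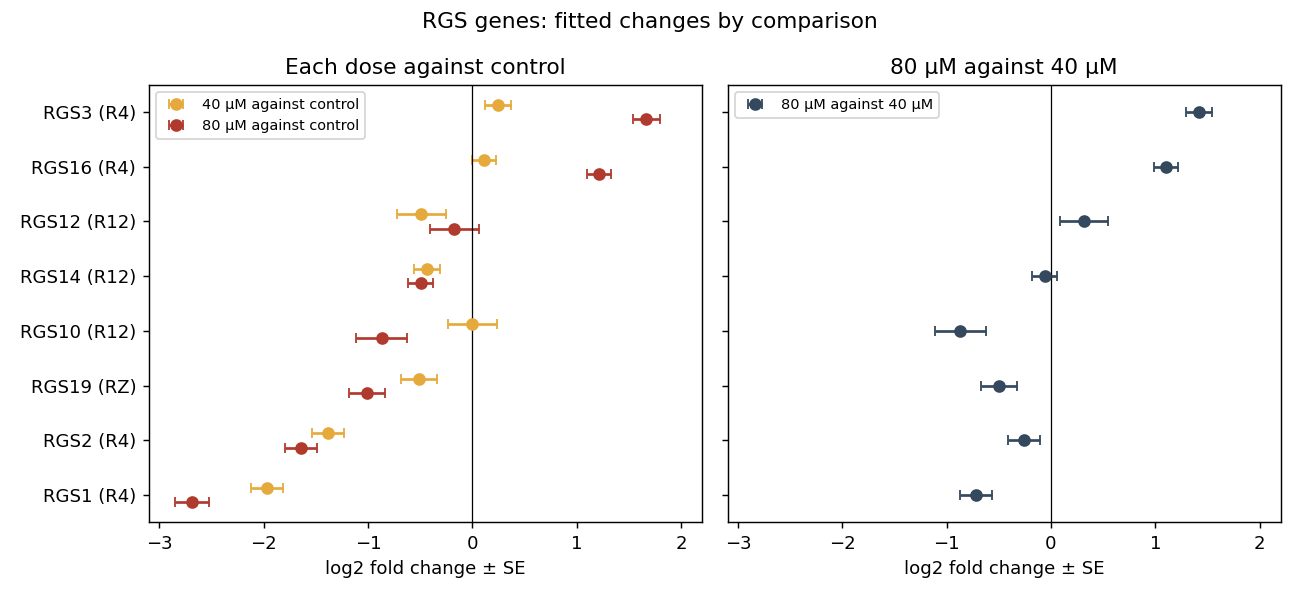
Log2 fold change (x axis) of the 8 RGS genes at 40 µM and 80 µM EGCG against control (left panel) and at 80 µM against 40 µM (right panel), with bars of ± 1 SE from the fit over 9 libraries. In the left panel RGS1 and RGS2 lie left of 0 at both doses, from -1.38 to -2.69, and RGS3 and RGS16 lie near 0 at 40 µM and at 1.67 and 1.21 at 80 µM.

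All 8 genes passed the filter on low counts. At 40 µM against control, 2 of the 8 were called lower and none higher, where 2.30% of the 15982 tested genes were called (1.49% higher and 0.813% lower). At 80 µM against control, 5 were called lower and 2 higher, where 34.9% of tested genes were called (17.5% lower and 17.4% higher). At 80 µM against 40 µM, 2 were called lower and 2 higher, where 23.0% were called (12.1% lower and 10.9% higher). The median log2 fold change of the 8 was -0.46, -0.68 and -0.16 in these 3 comparisons, beside 0.02, 0.00 and -0.01 over all tested genes. Since the genes were picked with these contrasts in view, nothing is read from the counts or the medians. The gene outside the counts in all 3 comparisons was RGS12. RGS10 left the count at 80 µM against control without control replicate 3 (log2 fold change -0.84), 80 µM replicate 1 (-0.83) or 80 µM replicate 2 (-0.62). It left the count at 80 µM against 40 µM without 40 µM replicate 1 (-0.71), 80 µM replicate 1 (-0.84) or 80 µM replicate 2 (-0.63), and with only the 6 libraries compared in the fit (-0.87). RGS19 entered that count without control replicate 3 (-0.49) and with only the 6 libraries compared (-0.50). At 40 µM against control, RGS14 entered the count with DESeq2 (-0.44).

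Levels can be compared between genes only per length, and the length used decided part of the order. The deposited FPKM values (fragments scaled to gene length and library size) imply a length of 26471 bases for RGS3 and 22005 for RGS12, which equal the summed length of all distinct exons in GENCODE 29, with overlapping exons counted repeatedly. For RGS1 they imply 6454 bases, more than its 4305-base span, its exon union of 4117 bases and its longest coding transcript of 1405 bases. RGS16 has 1 annotated transcript of 2427 bases, and its implied length of 2408 bases is close to it. The deposited FPKM thus sets RGS1 low beside RGS16, so levels are also given as CPM per kb of exon union and of longest coding transcript, lengths chosen after the data had been seen.

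RGS1 led the 8 genes in control under each length. Its level there was 84.7 ± 19.1 FPKM (SD, n = 3), 132 ± 24.6 CPM per kb of exon union and 388 ± 72.1 CPM per kb of longest coding transcript. RGS2 followed at 29.3 ± 5.26 FPKM, 40.8 ± 5.57 and 63.1 ± 8.62 in the same units. RGS14 had 10.4 ± 0.867 FPKM in control and RGS16 9.48 ± 0.241 FPKM, with overlapping libraries. Per kb of exon union RGS14 had 21.6 ± 2.63 CPM and RGS16 9.45 ± 0.683 CPM, with no overlap. RGS12 and RGS3 were the lowest in control and at 40 µM under all 3 lengths, with 0.838 ± 0.190 FPKM for RGS12 and 0.449 ± 0.0377 FPKM for RGS3 in control.

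The level of RGS1 relative to RGS16 in the same library dropped with dose, and that drop does not depend on length. In deposited FPKM the ratio was 9.92, 10.5 and 6.50 in control libraries, 2.01, 2.19 and 2.09 at 40 µM, and 0.641, 0.591 and 0.549 at 80 µM. No library of one dose overlapped another dose. Whether the ratio at 80 µM lay under 1 does depend on length. Per kb of exon union it was 1.01, 0.934 and 0.868 at 80 µM, and per kb of longest coding transcript it was 2.97, 2.74 and 2.54. RGS16 at 80 µM had 22.3 ± 0.470 FPKM beside 13.3 ± 1.11 FPKM for RGS1, but 21.9 ± 0.787 CPM per kb of exon union beside 20.6 ± 2.00 for RGS1, where the libraries overlapped.

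**Figure D3:**
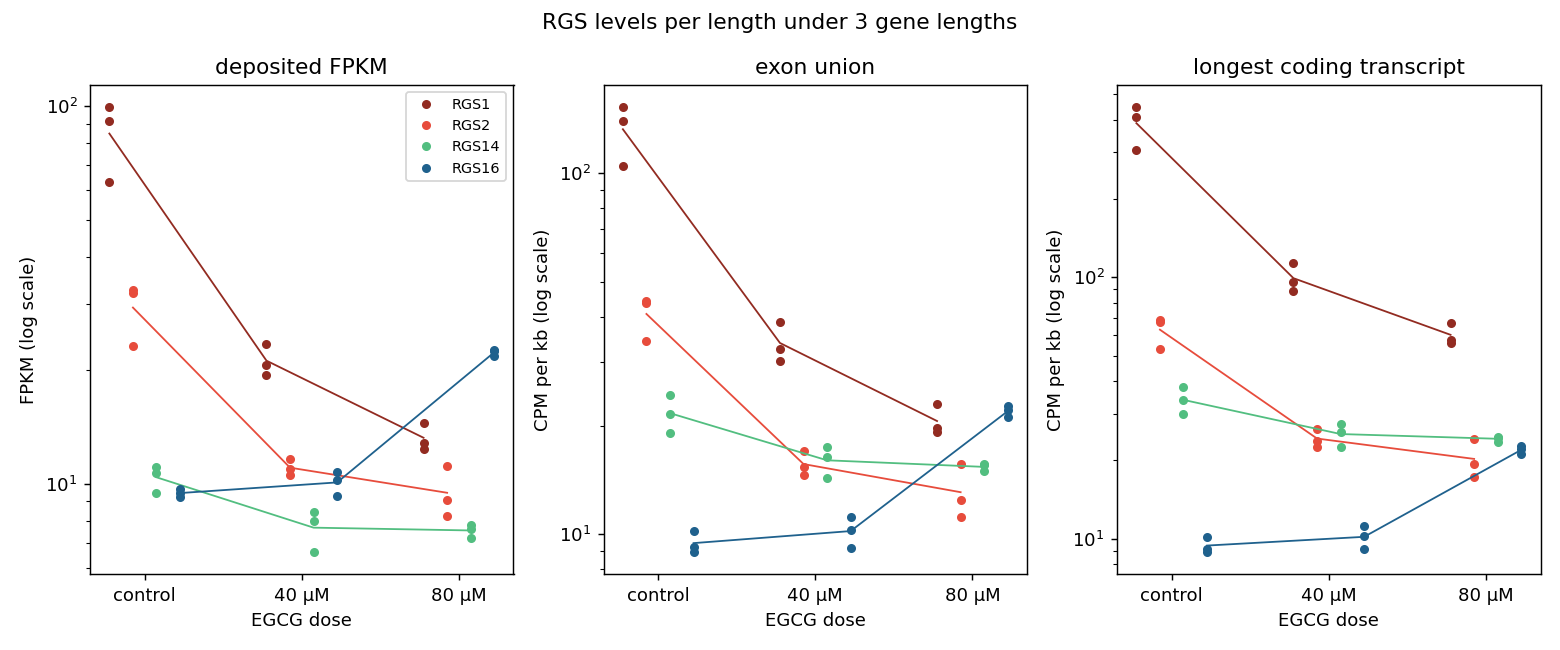
Level per length (y axis, log scale, a scale of its own in each panel) of RGS1, RGS2, RGS14 and RGS16 by EGCG dose (x axis), as deposited FPKM, as CPM per kb of exon union and as CPM per kb of longest coding transcript. Points are libraries and lines join the means (n = 3); RGS1 drops with dose in each panel and RGS16 is higher at 80 µM, but at 80 µM all RGS16 libraries stand above RGS1 in the FPKM panel, the 2 genes overlap in the exon union panel and RGS1 stands above RGS16 in the longest coding transcript panel.

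Summed over the 21 RGS genes, the level per length was lower at both EGCG doses than in control under each length. In FPKM the sum was 150 ± 22.2 (SD, n = 3) in control, 63.6 ± 2.84 at 40 µM and 63.5 ± 2.54 at 80 µM. In CPM per kb of exon union it was 229 ± 24.2 in control, 97.7 ± 5.55 at 40 µM and 88.1 ± 4.97 at 80 µM, and per kb of longest coding transcript it was 533 ± 72.3, 194 ± 12.7 and 158 ± 9.55. The share of RGS1 in that exon-union sum was 57.4% in control, 34.6% at 40 µM and 23.4% at 80 µM, and the share of RGS16 was 4.18%, 10.4% and 24.9%. Per longest coding transcript the RGS1 share was 72.4%, 51.1% and 38.2% at the same doses, and that of RGS16 1.81%, 5.25% and 13.9%. Without RGS1 and RGS2, the other 19 genes summed to 56.0 ± 5.73 CPM per kb of exon union in control, 48.2 ± 4.52 at 40 µM and 54.4 ± 2.98 at 80 µM. In FPKM that remainder was 35.8 ± 2.08, 31.3 ± 2.83 and 40.8 ± 1.57, and per longest coding transcript 82.3 ± 8.05, 70.4 ± 6.71 and 77.2 ± 4.89. Whether its 80 µM mean lay above or below the control mean thus depended on length. These are levels relative to each library's total, and in bulk RNA fewer cells with a transcript and less of it per cell cannot be told apart.

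RGS1 and RGS2 belong to a run of 5 RGS genes of the R4 subfamily on the long arm of chromosome 1, in the order RGS18, RGS21, RGS1, RGS13 and RGS2 (GRCh38, GENCODE 29). RGS1 spans chr1:192575727-192580031 and RGS2 chr1:192809039-192812283, both on the plus strand. RGS13, which lies between them 56.1 kb from RGS1 and 148.7 kb from RGS2, had 47 counts in all 9 libraries together. RGS21 had 6 counts and RGS18 had 0, while RGS1 had 32283 and RGS2 had 6127. Expression within the run was thus nearly confined to RGS1 and RGS2. RGS16 lies at chr1:182598623-182604408 on the minus strand, 37.4 kb from RGS8, which had 19 counts in all. Among the 8 genes, the 2 lower and the 1 higher R4 gene of chromosome 1 are therefore not direct neighbours. A lincRNA on the opposite strand (ENSG00000285280) overlaps both RGS1 and RGS2 and had 19 counts. How reads in that overlap were counted is not given in the sources, and their part in the RGS values was not tested. No other annotated gene that overlaps 1 of the 8 had more than 10 counts.

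**Figure D4:**
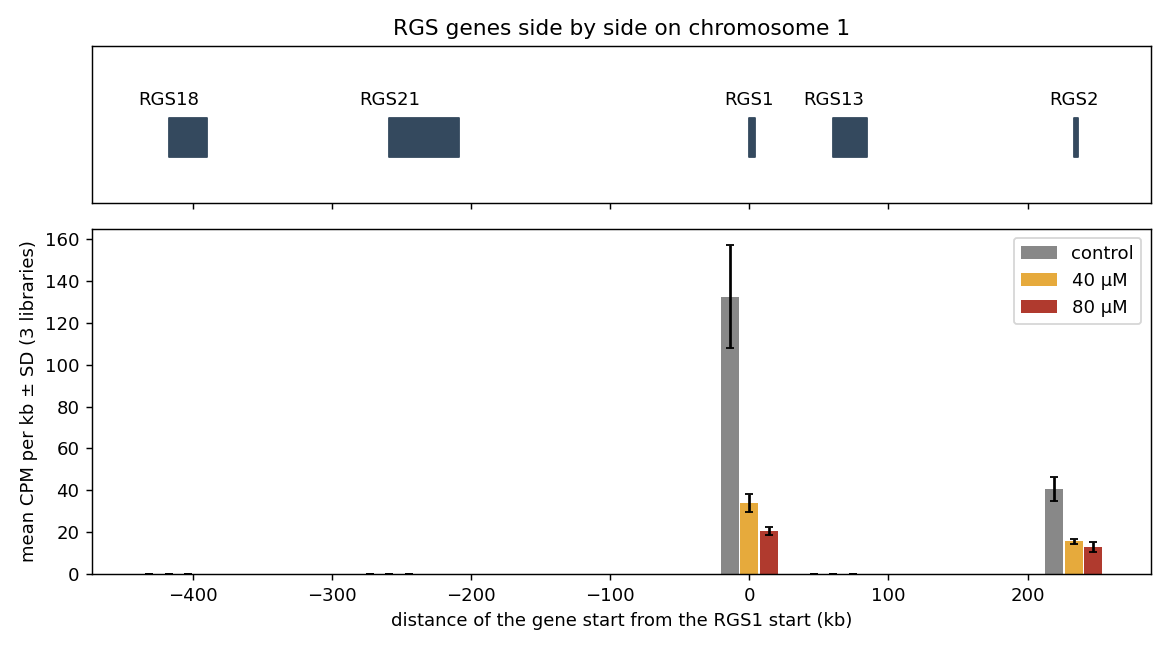
Upper panel, the 5 RGS genes of the chromosome 1 run drawn to scale by distance from the start of RGS1 (x axis, kb). Lower panel, mean CPM per kb of exon union ± SD of each (n = 3, y axis, linear, from 0) near the same distances for control, 40 µM and 80 µM EGCG, drawn side by side for legibility; only RGS1 (132, 33.9 and 20.6) and RGS2 (40.8, 15.6 and 13.1) stand above the baseline.

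Among the 8, RGS3 and RGS16 had the most similar profile over the 9 libraries, with a root mean square difference of 0.22 in centred log2 CPM. RGS14 and RGS19 differed by 0.23 and RGS1 and RGS2 by 0.43, while RGS1 and RGS3 were farthest apart at 1.78. The same measure against 10498 genes of at least 5 CPM named the nearest profiles. They share libraries and dose groups with the RGS genes, and no function or control is implied. HES1, a Notch-responsive repressor, was nearest to RGS1 at 0.32, with log2 fold changes of -1.57 at 40 µM and -2.37 at 80 µM against control. RGS2 itself (0.43) and the kinase gene WNK2 (0.43) came next to RGS1. For RGS2 the nearest were the splicing factor PTBP1 (0.21), the mRNA decay factor ZFP36L2 (0.27) and CYBB (0.28), which encodes the catalytic subunit of the phagocyte NADPH oxidase. PTBP1 had log2 fold changes of -1.47 at 40 µM and -1.51 at 80 µM, a similar one-step pattern. For RGS3 the nearest were PLEK (0.11), RNF122 (0.13) and GTPBP2 (0.14), and for RGS16 GARRE1 (0.08), ZNF274 (0.10) and SAT1 (0.10). RGS19 lay nearest to FAM78A (0.06), LRWD1 (0.07) and DEAF1 (0.07), and RGS14 nearest to MFSD10 (0.05), ARHGAP45 (0.06) and RANBP3 (0.06). RGS10 lay nearest to NMB (0.15), HGH1 (0.19) and DNAAF10 (0.19), and RGS12 to THRA (0.14), RERE (0.14) and WDR27 (0.15).

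The other 13 RGS genes were scarce. By total count the 8 genes ran down to 1538 for RGS10, and the next RGS gene, RGS9, had 788. Only RGS5, RGS6, RGS9 and RGS17 of the 13 passed the filter. RGS9, a partner of GNB5 in the R7 subfamily, had 6.18 ± 1.03 CPM at 80 µM and 6.14 ± 0.651 CPM in control (SD, n = 3 each), with a log2 fold change of 0.01 ± 0.18 (SE). RGS5 rose at 80 µM, with 3.20, 3.19 and 3.82 CPM against 1.96, 1.93 and 1.61 CPM in control libraries. Its log2 fold change was 0.89 ± 0.24, with an adjusted p of 0.0161 by edgeR's quasi-likelihood test. Leaving out control replicate 3 gave an edgeR adjusted p of 0.054, and leaving out 80 µM replicate 3 gave 0.0538, so each library alone decided that call. RGS17 had 21, 12 and 13 counts in the 80 µM libraries against 0, 0 and 6 in control libraries. It was called higher (edgeR adjusted p 0.0299), but the call ended in 4 of the 9 fits that left out a library, with edgeR adjusted p-values of 0.0888, 0.0815, 0.0932 and 0.0561. Those fits left out control replicate 1, control replicate 2, 80 µM replicate 1 and 80 µM replicate 3, in that order. Its fitted change rests on counts near 0 and is not given as a fold.

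The genes around the RGS step were followed with 10 lists of 145 genes, from receptors to cAMP enzymes, of which 91 passed the filter. At 80 µM against control, 20 of the 91 rose and 21 fell, or 45.1%, beside the 34.9% of all tested genes called. At 80 µM against 40 µM, 8 rose and 15 fell, or 25.3%, beside 23.0% of all. At 40 µM against control, 1 of the 91 fell and none rose, beside 2.30% of all. An unadjusted p under 0.05 was found for 23 of the 91, beside 3188 of all 15982 (19.9%), and DESeq2 called 4. The median log2 fold change of the 91 was -0.04 at 80 µM against control, beside 0.00 over all tested genes.

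Receptors lie upstream of the G proteins, and the list of 29 chemokine, lipid and nucleotide receptors of lymphoid cells had 12 tested members. Of the 12, 8 fell and 2 rose at 80 µM against control, with a median log2 fold change of -0.82. Called genes were thus 83.3% of the 12, beside 34.9% of all tested genes (17.5% lower and 17.4% higher). CXCR4, the receptor for CXCL12, had 123, 127 and 135 CPM in control libraries, 87.7, 108 and 94.4 CPM at 40 µM, and 56.1, 43.4 and 45.8 CPM at 80 µM. The 3 groups of CXCR4 did not overlap, and the larger step lay between 40 µM and 80 µM. Its log2 fold change at 80 µM was -1.40 ± 0.13, with an adjusted p of 3.22e-05 by edgeR's quasi-likelihood test. CXCR3, the receptor for interferon-induced chemokines, fell by 1.36 ± 0.12 on the log2 scale (edgeR adjusted p 2.78e-05), and CCR1, a receptor for CCL3 and CCL5, fell by 1.15 ± 0.10 (edgeR adjusted p 2.37e-05). CCR2, CCR10, S1PR2, LPAR2 and ADORA2A also fell, and ADORA2B and P2RY10 rose. ADORA2A was no longer called without any 1 of the 80 µM libraries, 40 µM replicate 3, or control replicate 1 or 3 (edgeR adjusted p 0.0594 to 0.15), nor without a filter (0.0792) or with the replicate block (0.0622). The ADORA2B call ended without replicate 1 or 2 of control or of 80 µM (edgeR adjusted p 0.0685 to 0.096), and that of P2RY10 without control replicate 1 or 3 or 80 µM replicate 1 (edgeR adjusted p 0.0571 to 0.0791). At 40 µM against control none of the 12 was called by edgeR's quasi-likelihood test, and 7 had an unadjusted p under 0.05, beside 19.9% of all tested genes.

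Of 10 tested G protein alpha subunit genes, 3 rose and 1 fell at 80 µM against control, or 40.0%, beside 34.9% of all. GNAZ, which encodes the Gz alpha subunit that RZ proteins such as RGS19 act on, had 4.91, 4.40 and 5.61 CPM at 80 µM against 10.8, 13.4 and 14.3 CPM in control libraries. Its log2 fold change was -1.37 ± 0.17 (edgeR adjusted p 0.000183), so GNAZ and RGS19 were both lower at 80 µM. GNAQ, the Gq alpha subunit, rose by 0.60 ± 0.14 on the log2 scale (edgeR adjusted p 0.00837), and GNA13 rose by 0.53 ± 0.13 (edgeR adjusted p 0.00948). GNAI3 was called higher as well, by 0.36 on the log2 scale, but not in 11 of 14 alternative fits, 8 of which left out 1 library (any but control replicate 2), with edgeR adjusted p-values of 0.0523 to 0.171. GNAI2, the Gi alpha subunit that chemokine receptors of leukocytes use most, was not called, with a log2 fold change of -0.15. Of 10 tested beta and gamma subunit genes, GNB5 alone was called at 80 µM against control, or 10.0%, beside 34.9% of all. GNB5 had 71.4, 72.7 and 74.4 CPM at 80 µM against 38.6, 35.6 and 41.3 CPM in control libraries, a log2 fold change of 0.92 ± 0.13 (edgeR adjusted p 0.00037). GNB5 pairs with RGS proteins of the R7 subfamily, of which RGS9, as given above, and RGS6 were tested and not called. RGS6 had a log2 fold change of -0.42 ± 0.52 at 80 µM against control, with 12 to 62 counts a library. GNB2 was called higher only at 80 µM against 40 µM (log2 fold change 0.48 ± 0.15, edgeR adjusted p 0.0442), with overlapping libraries. That call ended in 10 of 14 alternative fits (edgeR adjusted p 0.0524 to 0.153), 7 of which left out 1 library (any but control replicate 3 and 80 µM replicate 2).

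Further proteins carry a domain like that of the RGS genes or act on the same G proteins. Of 14 tested genes with an RGS homology domain outside the RGS family, 3 rose and 2 fell at 80 µM against control. Those calls were 35.7% of the 14, beside 34.9% of all tested genes. ARHGEF11, a guanine nucleotide exchange factor that G13 activates, rose by 0.64 ± 0.13 on the log2 scale, the sorting nexin gene SNX13 rose by 0.57 ± 0.14, and SNX25 fell by 0.57 ± 0.11. AKAP10 rose and the receptor kinase gene GRK2 fell. Leaving out control replicate 3 or 80 µM replicate 1 ended the AKAP10 call (edgeR adjusted p 0.0533 and 0.0542), as did dropping the filter (0.0543), and leaving out 80 µM replicate 2 or 3 ended that of GRK2 (edgeR adjusted p 0.0612 and 0.0712). Of 7 tested modulators, 2 fell and none rose at 80 µM against control, or 28.6%, beside 34.9% of all. ARRB2, which encodes the receptor adaptor beta-arrestin 2, fell by 0.54 ± 0.13 and PDCL3 fell by 0.51 ± 0.14. The PDCL3 call ended without control replicate 1, 80 µM replicate 2 or 80 µM replicate 3 (edgeR adjusted p 0.0618, 0.0775 and 0.0794).

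Downstream, the enzymes that make and remove cAMP moved in both directions. ADCY3, which encodes an adenylyl cyclase, had 313, 300.3 and 324 CPM in control libraries, 223, 244 and 222 CPM at 40 µM, and 131, 133 and 134 CPM at 80 µM. The 3 groups stepped down without overlap. The ADCY3 log2 fold change was -1.24 ± 0.09 at 80 µM (edgeR adjusted p 7.48e-06) and -0.45 ± 0.09 at 40 µM (edgeR adjusted p 0.0268), both against control. The 40 µM call was the only one in the 10 lists, and it ended in 10 of 14 alternative fits (edgeR adjusted p 0.0514 to 0.12), 7 of which left out 1 library (any but control replicate 3 and 40 µM replicate 2). ADCY1 rose by 1.02 ± 0.11 on the log2 scale at 80 µM against control (edgeR adjusted p 8.03e-05), and ADCY9 fell by 0.93 ± 0.25. The ADCY9 call ended without control replicate 1, 80 µM replicate 1 or 80 µM replicate 3 (edgeR adjusted p 0.0511, 0.053 and 0.0599). Of 7 tested cAMP phosphodiesterase genes, 4 rose and 1 fell at 80 µM against control, or 71.4%, beside 34.9% of all. PDE4D rose by 1.80 ± 0.22, with 9.0, 7.45 and 6.16 CPM at 80 µM against 1.89, 2.31 and 2.30 CPM in control libraries (edgeR adjusted p 0.000179). PDE3B rose by 0.74 ± 0.13 and PDE4A fell by 0.94 ± 0.19, and PDE4B and PDE8B rose.

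**Figure D5:**
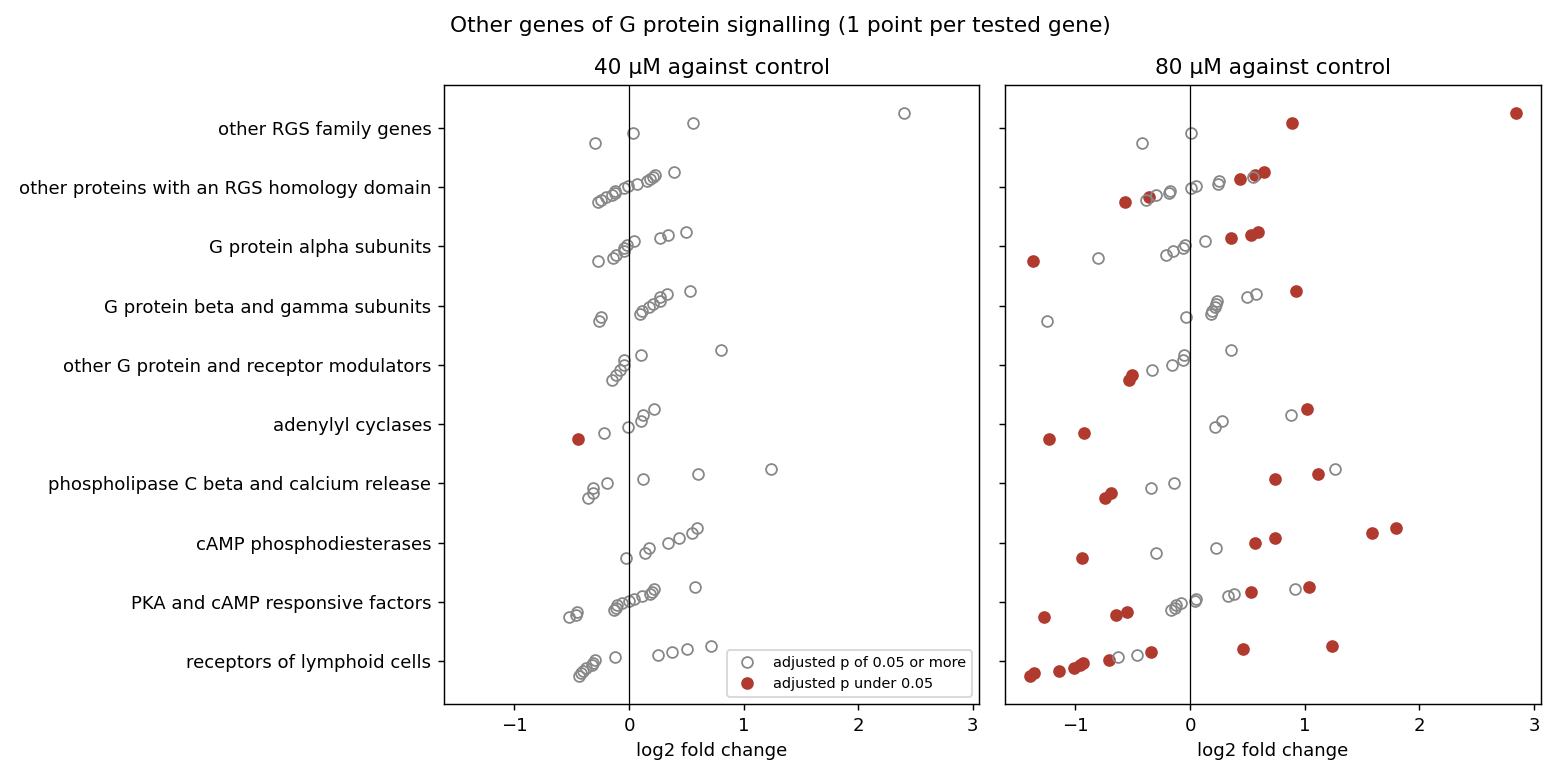
Log2 fold change (x axis) of every tested gene of the 10 lists (rows) at 40 µM and at 80 µM against control (panels), with filled points for genes past an adjusted p of 0.05 in edgeR's quasi-likelihood test and open points for the others. At 80 µM, 20 of the 91 genes rose and 21 fell, or 45.1%, beside 34.9% of all tested genes. Among them 8 of 12 receptor genes fell and 2 rose, and of the 7 other modulators 2 fell and none rose.

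In the protein kinase A list 2 of 14 tested genes rose and 3 fell at 80 µM against control. Those calls were 35.7% of the 14, beside 34.9% of all tested genes. CREM, a cAMP-responsive transcription factor, rose by 1.04 ± 0.18 on the log2 scale (edgeR adjusted p 0.00149), and the regulatory subunit gene PRKAR1B fell by 1.27 ± 0.14 (edgeR adjusted p 0.000117). PRKAR2B and PKIA fell. Both calls ended without control replicate 2 or any 80 µM replicate (edgeR adjusted p 0.0504 to 0.11 for PRKAR2B and 0.0701 to 0.154 for PKIA), and the PKIA call ended also without 40 µM replicate 3 (edgeR adjusted p 0.0531). Both ended without a filter too (edgeR adjusted p 0.0586 for PRKAR2B and 0.0644 for PKIA). CRTC2, a coactivator of CREB, rose by 0.53 ± 0.15, a call that ended without 80 µM replicate 2 (edgeR adjusted p 0.0616). On the Gq side, where RGS2 acts, 2 of 7 tested genes of phospholipase C beta and calcium release rose and 2 fell. Those calls at 80 µM against control were 57.1% of the 7, beside 34.9% of all tested genes. PLCB1 rose by 1.11 ± 0.20 (edgeR adjusted p 0.00193) and the calcium channel gene ITPR1 by 0.74 ± 0.15 (edgeR adjusted p 0.00366). ITPR3 fell by 0.69 ± 0.11 (edgeR adjusted p 0.00103), as did PLCB3, whose call ended without 80 µM replicate 1 (edgeR adjusted p 0.0521).

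The libraries held 12674490 to 16427343 counts each, and a floor of 3 counts corresponds to 0.183 to 0.237 CPM. The replicate 2 library of 40 µM stood apart on the second principal component (13.7% of variance). Without it the log2 fold change at 40 µM against control was -2.09 for RGS1 and -1.46 for RGS2, and both were still called. The cell type, though not the identity of the line, was checked with plasma cell markers. Their 8 genes summed to 4442 to 4584 CPM in control, 4336 to 4535 at 40 µM and 4381 to 4883 at 80 µM. Single markers in that sum differed with dose. SDC1 averaged 928 ± 31.6 CPM (SD, n = 3) in control, 445 ± 57.0 at 40 µM and 586 ± 267 at 80 µM, with 1 library of 80 µM at 288. IRF4 averaged 1014 ± 15.9 CPM in control, 1360.0 ± 80.4 at 40 µM and 1671 ± 33.3 at 80 µM, and MZB1 averaged 557 ± 49.8, 436 ± 89.6 and 366 ± 5.60 CPM. Of the mature B cell markers, CD22 was at 0 counts in all libraries, and the sum was 19.6 to 23.1 CPM in control, 13.8 to 17.4 at 40 µM and 8.22 to 8.63 at 80 µM, nearly all of it CR2. The T cell list summed to 4.67 to 5.80 CPM in control, 2.84 to 4.39 at 40 µM and 2.26 to 3.50 at 80 µM, with CD3D at 0. Most of it was CD3E, with means of 4.2 CPM in control, 3.0 at 40 µM and 1.9 at 80 µM. At the same doses CD2 averaged 0.68, 0.27 and 0.06 CPM, and TRAC went the other way at 0.37, 0.43 and 0.81. Monocyte markers summed to 6.47 to 8.42 CPM in control, 6.24 to 15.98 at 40 µM and 4.91 to 7.01 at 80 µM. The stromal list summed to 1.62 to 3.91 CPM in control, 1.58 to 1.97 at 40 µM and 0.892 to 1.66 at 80 µM, with COL1A2 at 0. The mature B and T cell sums, made up mostly of CR2 and of CD3E, were lower at both EGCG doses than in control. Their part in the RGS values was not tested. RGS1 alone was at 79.0 CPM or more in every library.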

How the data were processed

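RNA of 9 MM.1S libraries, 3 per dose, was measured by RNA sequencing. For each gene and library the authors' deposited table gives a whole-number count and an FPKM. Counts carry no normalization, and FPKM is scaled by gene length and library size. Per the submitters' processing notes, HISAT2, SAMtools 1.3.1, CASAVA 1.8, edgeR and GRCh38 were used. The sources used here name neither counting program, strand setting nor annotation. The table holds 60675 IDs, of which 58444 are in GENCODE 29.

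Counts were fitted with edgeR 4.0.16 (R 4.3.3) over all 9 libraries, with dose as a factor, TMM scaling, filterByExpr and quasi-likelihood tests. This kept 15982 genes with 99.71 to 99.83% of counts. Calls are at a Benjamini-Hochberg adjusted p under 0.05 over all tested genes. SE is the absolute log2 fold change over the square root of F. The fit was run on simulated data to check that set fold changes were recovered. The simulation gave every gene the same spread and changed few genes, so it does not test the calls reported here. FPKM entered no test, and levels per length were also taken from CPM and GENCODE 29 exon lengths. P-values weigh a difference between doses against the spread between libraries, which may be technical, and the floor covers counting error only. The alternatives were DESeq2 1.42.0, its size factors, no filter, only the libraries compared, a replicate block and each library left out.

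The RGS genes and the gene lists were chosen with earlier results of these data known. Named genes are the 8, the 3 called genes of smallest p at 80 µM against control in each list, and the 3 nearest profiles of each RGS gene. Other list genes are named to complete a count or for their position or role beside a named gene, after their values were seen. Among them RGS6, RGS9 and GNAI2 were called in no comparison. Nearest profiles are by root mean square difference of centred log2 CPM (prior count 2).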

Additional observations from a re-analysis of the deposited data

How the results depend on the processing

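Over 14 alternative fits, 2 to 3 of the 8 RGS genes were past the threshold at 40 µM against control, 6 to 7 at 80 µM against control and 3 to 5 at 80 µM against 40 µM. The genes were picked on these contrasts, so this is no evidence of stability. The log2 fold change of RGS1 at 80 µM against control ranged from -2.85 to -2.56, that of RGS3 from 1.60 to 1.76 and that of RGS16 from 1.18 to 1.26. The ratio of RGS1 to RGS16 at 80 µM averaged 0.594 in FPKM, 0.938 per exon union and 2.75 per longest coding transcript, since the lengths differ; these lengths were added after seeing the data. The count of list genes called at 40 µM against control, 1 in the fit reported, was 4 by DESeq2 and 0 without a filter, under the replicate block and when the fit held just 6 libraries. Its range was 0 to 1 when single libraries were left out. Over all genes, 368 were called at 40 µM against control, 859 by DESeq2, 228 without a filter, 153 with the 6 libraries compared, 183 with a replicate block, and 136 to 469 with a library left out. No pairing by replicate number was seen. The correlations of same-numbered libraries lay between -0.139 and 0.051, and those of libraries with different numbers between -0.108 and 0.116. With 3 libraries a group, these values cannot exclude a weak pairing. The replicate block gave 5069 calls, beside 5574 without it, at 80 µM against control, and 3078 beside 3674 at 80 µM against 40 µM. It moved none of the 8 RGS genes across the threshold. Among the list genes it ended the calls of ADCY3 at 40 µM and of ADORA2A and GNAI3 at 80 µM, against control. At 80 µM against 40 µM it ended those of GNB2, PDE3B, ITPR3 and CREB1. The floor of 3 counts limits what can be said of the scarce RGS genes, RGS17 among them. Isoforms of RGS3 and RGS12 are not resolved by counts per gene.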
